A study of Ovis aries with 13 samples.

Results

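FCGR1A, FCER1G and CD14 are genes of monocytes, macrophages and other myeloid cells, which take up antibody-coated particles and sense bacterial products. Their probes were found on a sheep microarray as the non-control spots whose deposited gene name, or whose RefSeq accession, was that of any of these 3 genes. They are 3 of the 1015 genes named on the array and hold 5 of its 15008 probes, 1 for FCGR1A, 2 for FCER1G and 2 for CD14. FCGR1A and CD14 were found by both name and accession, and FCER1G by name alone.

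The arrays held RNA of frozen left ventricle from 7 newborn lambs at postnatal day 1 and 6 sheep fetuses at gestational day 142. The newborn group had 4 females and 3 males, and the fetal group had 2 females and 4 males. No treatment, strain or genetic change is named for either group. Each animal had 1 array. The submitters describe 7 fetuses and further heart regions, of which only the 13 left ventricle arrays were analysed here. The tissue was analysed whole, so the muscle, vessel, blood and immune cells of each piece share its signal. For every gene below, fewer cells of a type and less RNA per cell cannot be told apart. Each animal also carries a number in its label, and 4 of the numbers occur in more than 1 animal of the same group, 9 animals in all. No source used here says what such a repeated number stands for, so p-values over animals may count related animals as separate.

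FCGR1A encodes CD64, the high-affinity receptor by which myeloid cells bind the constant part of IgG. FCER1G encodes the common gamma chain, an adaptor that pairs with several Fc receptors, CD64 among them, carries their signal into the cell through a tyrosine-based activation motif and is needed for their surface display. Beyond monocytes and macrophages it is made by mast cells, granulocytes and natural killer cells. CD14 is a surface and soluble protein that hands bacterial endotoxin to the TLR4 receptor complex, and it is used as a marker of monocytes. In a heart, resident macrophages and monocytes that arrive from blood are the usual carriers of these transcripts. Interferon is a known inducer of FCGR1A in myeloid cells.

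The probe sequences are shown because they fix which part of each transcript was measured, and because the probes of a pair turn out to be nearly the same molecule. They were copied from the deposited scanner files and are written 5′ to 3′. Capitals mark the base that a probe does not share with the other probe of its gene. For FCER1G only the first 30 bases are given, which leaves out the unshared last base of A_70_P002706.
FCGR1A, probe A_70_P013681: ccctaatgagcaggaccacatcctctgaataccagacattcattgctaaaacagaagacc
FCER1G, probe A_70_P002706: ggtcctactgaacagtgggaagggactaac
FCER1G, probe A_70_P002707: Aggtcctactgaacagtgggaagggactaa
CD14, probe A_70_P030286: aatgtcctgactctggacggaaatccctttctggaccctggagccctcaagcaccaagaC
CD14, probe A_70_P030287: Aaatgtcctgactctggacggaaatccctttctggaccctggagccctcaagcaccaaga
Each probe is 60 bases long. Both probes of FCER1G hold the letters AATAAA, the polyadenylation signal, and end in a run of 5 or 6 A. These lie on the strand shown, past the 30 bases printed. The other 3 probes hold no such letters, and 5.63% of all probes on the array do. The paired probes of FCER1G, and likewise those of CD14, share 59 of 60 bases, being offset by 1 base, so they are repeat readings of 1 site and not independent evidence. No probe of another gene on the array shares a stretch of 20 bases with any of the 5. GC content was 45% for FCGR1A, 41.7% for both FCER1G probes, and 55% and 53.3% for the CD14 probes.

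All values below are the log2 of the spot's processed signal relative to the 75th percentile of its own array, so that 0 is a signal equal to that percentile. A probe has no absolute scale, so levels are compared between animals for 1 probe and not between probes. The summed signals of gene lists below are the exception, since they add probes that have no common scale. A probe was tested if it was well above background on at least 6 of the 13 arrays, and the test was limma's moderated test with Benjamini-Hochberg adjustment over all 10258 tested probes and a threshold of 0.05. A probe could thus enter through 1 group alone. Among others FCGR1A, TNF and IL1B entered through the newborn arrays, with 2, 2 and 3 fetal arrays well above background. With no filter FCGR1A and TNF passed and IL1B did not (adjusted p = 0.00193, 0.00943 and 0.0700 in limma). All 5 probes were tested. The 75th percentile lay between 219 and 367 intensity units over the arrays, and 62.7% to 71.4% of probes were well above background. The first principal component, with 36.8% of the variance, held the fetal arrays between -29.1 and -20.4 and the newborn arrays between 10.1 and 35.1, except newborn 6 at -8.98. The cardiomyocyte gene MB, which encodes myoglobin and is the only one of 15 listed heart muscle markers with a named probe, was well above background on all 13 arrays. The arrays lay on 2 slides that held both groups. With 13 arrays, their number sets the precision.

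All 3 genes were higher in newborn than in fetal left ventricle, and all 5 of their probes passed the test. On the processed signals FCGR1A rose 4.21-fold, FCER1G 1.69-fold and CD14 1.58-fold. The size for FCGR1A is uncertain, since 4 of 6 fetal arrays did not measure it well above background, and under both normexp corrections its change was below that of FCER1G (0.61 against 0.65 and 0.41 against 0.57 on the log2 scale). Across the array, 2367 of the 10258 tested probes passed, or 23.1%, and 12% passed as higher in newborn. The median log2 change of all tested probes was 0.03.

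**Figure D1:**
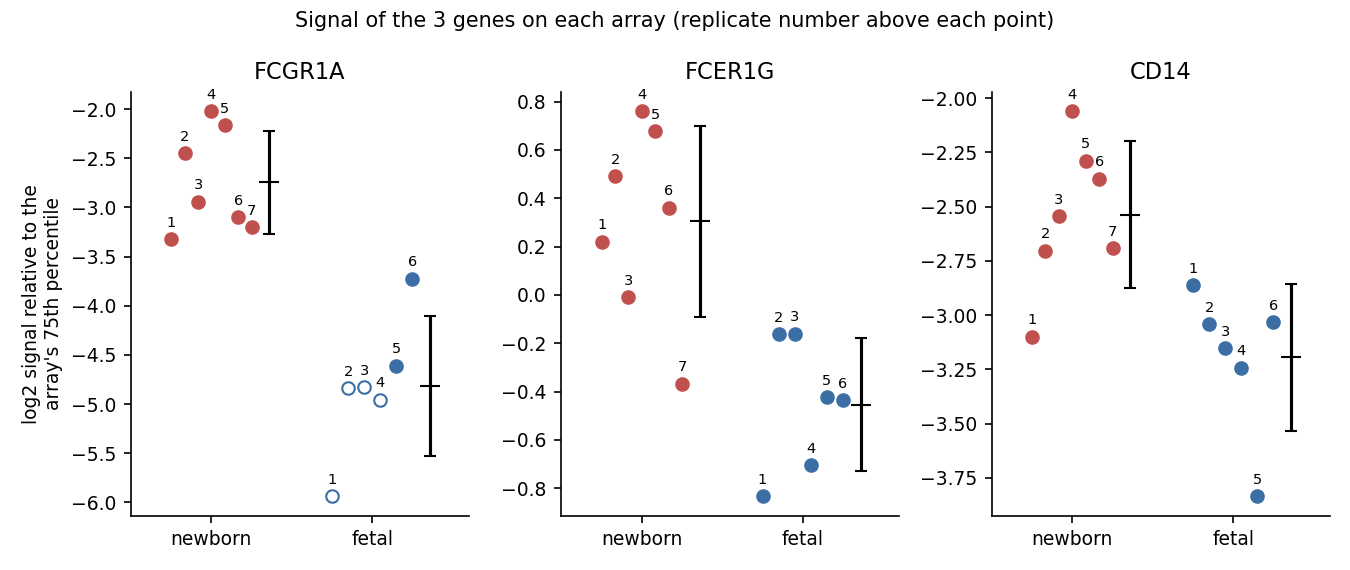
Log2 signal of the brightest probe of FCGR1A, FCER1G and CD14 relative to the 75th percentile of each array, with 1 point per animal, newborn at the left and fetal at the right of each panel, and its replicate number above it. Open points were not well above background, and the black bars give the mean and SD of each group. All 7 newborn arrays lie above all 6 fetal arrays for FCGR1A, and 6 of 7 do so for FCER1G and for CD14.

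FCGR1A, the IgG receptor, had its lowest newborn value at -3.32, its median at -2.94 and its highest at -2.02, against a lowest value of -5.94, a median of -4.84 and a highest value of -3.72 on the fetal arrays. Every newborn array lay above every fetal array, a separation that 3.38% of all tested probes showed in this direction. The mean was -2.74 ± 0.53 in newborn ventricles and -4.82 ± 0.71 in fetal ventricles (SD, n = 7 and 6). The log2 change was 2.07 (SE 0.304, 95% confidence interval 1.42 to 2.72, adjusted p = 0.000775 in limma). An exact two-sided permutation test over the 1716 ways of dividing the arrays gave p = 0.000583, the smallest that 7 against 6 allows.

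How far the FCGR1A signal stood above background differed between the groups. The probe was well above background on 7 of 7 newborn arrays and on 2 of 6 fetal arrays, fetal 5 and fetal 6, although it was significantly above background on all 13. The mean signal of the spot was 1.64 to 2.79 times the background subtracted from it on newborn arrays (median 2.13), and 1.11 to 1.66 times on fetal arrays (median 1.27). With every signal set no lower than the lowest one well above background on its array, a setting chosen after the data were seen, the change was 1.62 (adjusted p = 0.000543 in limma). On signals with no background correction it was 0.77 (adjusted p = 0.000769 in limma), and with normexp correction by the array's median background it was 0.61 (adjusted p = 0.00166 in limma). With normexp correction by each spot's own background it was 0.41 and did not pass (adjusted p = 0.848 in limma).

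**Figure D2:**
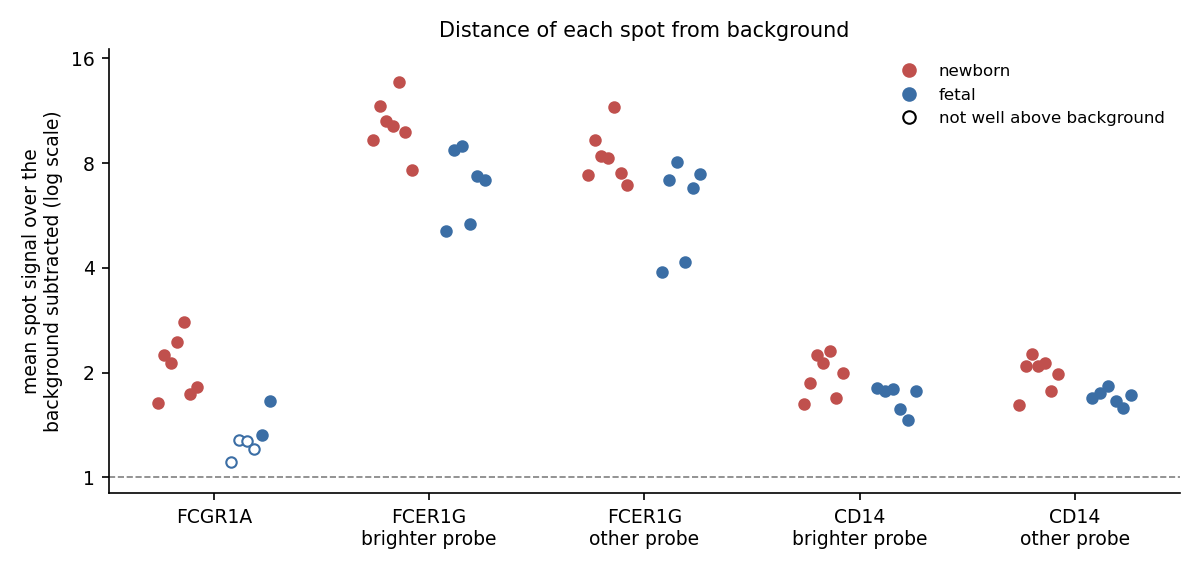
Mean spot signal divided by the background subtracted from it, on a log axis, for the 5 probes, with newborn arrays at the left and fetal arrays at the right of each pair and 1 point per array. The dashed line marks a signal equal to background, and open points were not well above it. FCGR1A spots reach 1.64 to 2.79 on newborn arrays and 1.11 to 1.66 on fetal arrays, while both FCER1G probes stand far from the line in both groups.

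FCER1G, the adaptor chain, was measured well above background on all 13 arrays by both probes. On the brighter probe the newborn values had a lowest of -0.37, a median of 0.36 and a highest of 0.76, and the fetal values had a lowest of -0.83, a median of -0.43 and a highest of -0.16. Newborn 7 lay inside the fetal range and the other 6 newborn arrays lay above it. The mean was 0.30 ± 0.40 in newborn ventricles and -0.45 ± 0.28 in fetal ventricles (SD, n = 7 and 6), a log2 change of 0.76 (SE 0.180, 95% confidence interval 0.37 to 1.14, adjusted p = 0.00920 in limma). The exact two-sided permutation test gave p = 0.00408. The other probe gave 0.70 (adjusted p = 0.0185 in limma), and the probes of the pair differed by at most 0.19 on any array.

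Of the 3 genes FCER1G stood farthest from background. Its brighter spot had 7.65 to 13.7 times the subtracted background on newborn arrays and 5.11 to 8.98 times on fetal arrays. The change stayed between 0.57 and 0.77 under every background correction and scaling tried. It was 0.68 with no background correction and 0.65 with normexp by the array's median background, both of which passed. With normexp by each spot's background it was 0.57 and did not pass (adjusted p = 0.186 in limma), a setting in which 45 probes passed on the whole array.

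CD14, the endotoxin co-receptor, had newborn values with a lowest of -3.10, a median of -2.54 and a highest of -2.06 on its brighter probe, and fetal values with a lowest of -3.84, a median of -3.10 and a highest of -2.86. Newborn 1 lay within the fetal range and the other 6 newborn arrays lay above it. The mean was -2.54 ± 0.34 in newborn ventricles and -3.19 ± 0.34 in fetal ventricles (SD, n = 7 and 6). The log2 change was 0.66 (SE 0.176, 95% confidence interval 0.28 to 1.03, adjusted p = 0.0164 in limma), and the exact two-sided permutation test gave p = 0.00408. The other probe gave 0.61 (adjusted p = 0.0109 in limma), and the probes of the pair differed by up to 0.39 on 1 array, newborn 6.

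CD14 was well above background on all 13 arrays, yet close to it, at 1.62 to 2.31 times the subtracted background on newborn arrays and 1.46 to 1.81 times on fetal arrays. Its change was 0.33 on signals with no background correction (adjusted p = 0.0330 in limma) and 0.28 with normexp by the array's median background (adjusted p = 0.0467 in limma). With normexp by each spot's background it was 0.13 and did not pass (adjusted p = 1.00 in limma). The change was 0.29 within slide 1, where newborn and fetal values overlapped, and 1.08 within slide 2, where they did not. Neither passed within its slide, and the difference between the slides was not tested. With slide as a block CD14 passed at 0.64 (adjusted p = 0.0287 in limma). The effect of slide itself passed for none of the 5 probes, and for 0 probes on the whole array.

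**Figure D3:**
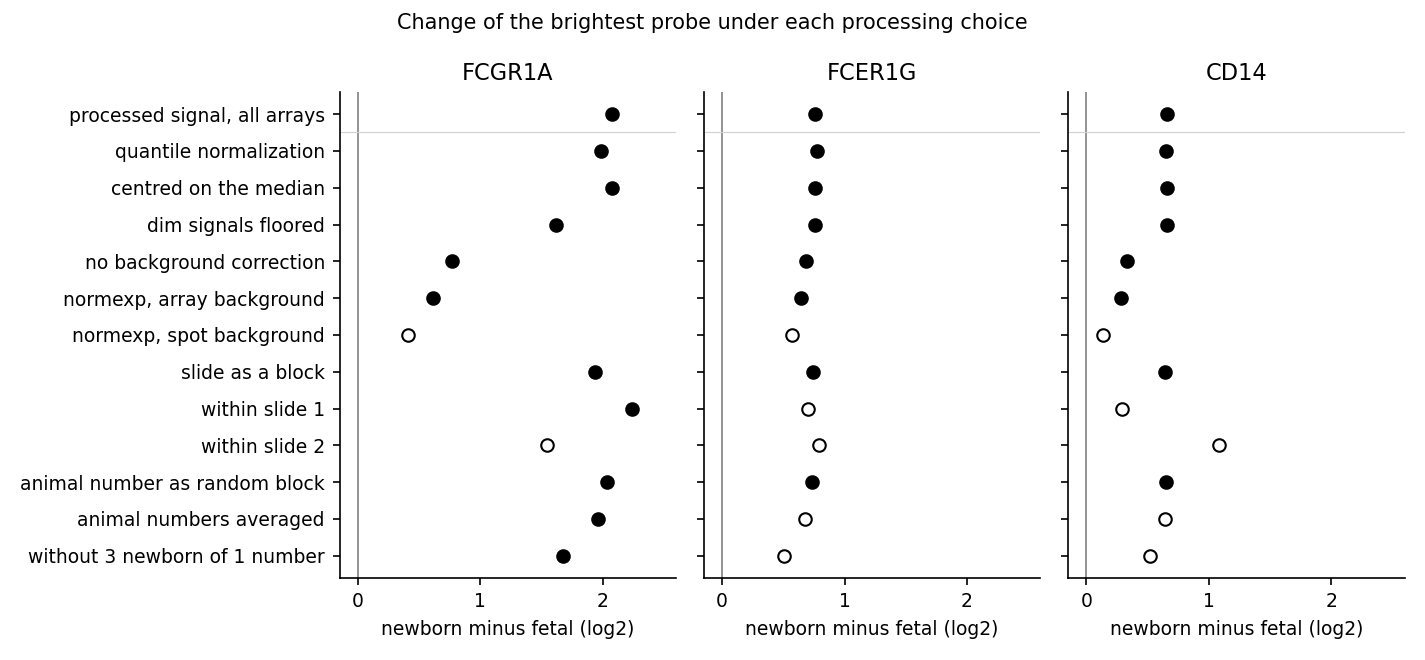
Log2 change, newborn minus fetal, of the brightest probe of FCGR1A, FCER1G and CD14 under 13 processing choices, with the values reported in the text in the top row. Filled points passed at an adjusted p of 0.05 in limma and open points did not. FCGR1A spans 0.41 to 2.24 over these choices, FCER1G 0.50 to 0.79 and CD14 0.13 to 1.08, all above 0.

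The change of FCGR1A was compared with those of the other genes by an exact two-sided permutation of the within-array differences, a test added after the values were seen. On the processed signals FCGR1A rose by 1.32 more than FCER1G (p = 0.00233, adjusted over the 3 pairs p = 0.00350, exact permutation) and by 1.42 more than CD14 (p = 0.00117, adjusted p = 0.00350, exact permutation). FCER1G and CD14 differed by 0.10, a difference that did not pass (p = 0.666, exact permutation). On signals with no background correction the excess of FCGR1A over FCER1G was 0.09 and did not pass (p = 0.502, exact permutation), while its excess over CD14 was 0.44 (p = 0.00117, exact permutation). With dim signals floored the excess over FCER1G was 0.86 (p = 0.00816, exact permutation). With normexp the direction turned, to -0.03 by the array's median background (p = 0.786, exact permutation) and -0.16 by each spot's background (p = 0.617, exact permutation), so FCGR1A cannot be placed above FCER1G in size of change. Against CD14 the excess of FCGR1A was 0.33 and 0.28 under the same corrections (p = 0.00117 and 0.0152, exact permutation).

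Among newborn animals the 3 that share 1 number, newborn 2, 4 and 5, were the highest for FCGR1A and for FCER1G. For FCGR1A they lay between -2.45 and -2.02, and the other 4 newborn animals between -3.32 and -2.94. On the brighter FCER1G probe they lay between 0.49 and 0.76, and the other 4 between -0.37 and 0.36. For CD14 the ranges overlapped, at -2.70 to -2.06 and -3.10 to -2.37. ISG15, an interferon-induced ubiquitin-like protein, and PSMB8, an interferon-induced proteasome subunit, had the same 3 animals at the top. Of the 7 genes of the interferon list that passed, 5 showed this order. IRF1, a transcription factor, and CXCL10, a chemokine, had newborn 2 and 5 but not newborn 4 among their 3 highest. How many of all tested genes show this order was not counted, so the 5 have no background rate. A link of the interferon genes to FCGR1A or FCER1G was not tested. ISG15 lay between 2.64 and 5.17 in newborn 2, 4 and 5 and between 0.84 and 1.999 in the other newborn animals. PSMB8 lay between 0.37 and 0.96 in newborn 2, 4 and 5 and between -0.63 and 0.23 in the others. Without these 3 animals the change of FCGR1A was 1.68 and passed (adjusted p = 0.0167 in limma), and those of FCER1G and CD14 were 0.50 and 0.52 and did not (adjusted p = 0.104 and 0.125 in limma). With animals of 1 number averaged, which left 4 numbers a group, FCGR1A passed at 1.96 (adjusted p = 0.00754 in limma) while FCER1G at 0.68 and CD14 at 0.64 did not (adjusted p = 0.0766 and 0.0657 in limma).

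No array on its own changed a call of the 3 genes. Leaving out each array in turn gave 1.85 to 2.29 for FCGR1A, 0.68 to 0.87 for FCER1G and 0.53 to 0.75 for CD14, with all of them passing in limma. Without newborn 6, the array nearest the fetal arrays on the first component, the changes were 2.13, 0.75 and 0.63. Within slide 1 FCGR1A passed at 2.24 (adjusted p = 0.0121 in limma), and within slide 2 it was 1.55 and did not pass. FCER1G was 0.70 within slide 1 and 0.79 within slide 2, neither of which passed.

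Sex was not associated with any of the 3 genes at the threshold. That holds for nearly every probe, since 1 of 10258 tested probes passed for sex and 0 for the age-by-sex term. With age in the model, females minus males was 0.44 for FCGR1A (SE 0.303), 0.12 for FCER1G (SE 0.189) and 0.11 for CD14 (SE 0.186), each with an adjusted p of 0.999 in limma. The newborn change in females minus that in males was -0.65 for FCGR1A (SE 0.608), -0.19 for FCER1G (SE 0.393) and -0.23 for CD14 (SE 0.385), with adjusted p = 0.987, 0.991 and 0.991 in limma. With 2 fetal females these intervals are wide, and they do not show that the sexes responded alike.

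Other Fc receptor genes were read from a list of 16 receptors and adaptors, of which 7 had a named probe and 4 were tested. Of the 4, 3 rose and 0 fell, and the median log2 change was 0.75, against 88 that rose and 62 that fell among 650 named genes tested, with a median of 0.09. FCGR1A and FCER1G are 2 of the 3, so the count mostly restates them. The third was FCGRT, the neonatal Fc receptor, which binds IgG inside cells, protects it from breakdown and is broadly expressed. FCGRT lay between 6.10 and 6.77 in newborn ventricles (median 6.46) and between 5.54 and 6.03 in fetal ventricles (median 5.65), with no overlap, and its log2 change was 0.75 (SE 0.119, adjusted p = 0.00133 in limma). FCER1A, the IgE-binding chain that uses the FCER1G adaptor in mast cells, averaged -0.88 in newborn and -1.38 in fetal ventricles and did not pass (0.50, adjusted p = 0.201 in limma). Its other probe gave 0.72 and did not pass either (adjusted p = 0.0959 in limma). FCGR2B, the inhibitory IgG receptor, MS4A2, the beta chain of the IgE receptor, and PIGR, the transporter of polymeric antibodies, were well above background on none of the 13 arrays. Of 18 genes of signalling downstream of such receptors only CD247 had a named probe, and it was well above background on no array.

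CD14 belongs to the endotoxin recognition list, of which 7 of 17 genes had a named probe and 5 were tested. CD14 and TLR2 rose and none fell, with a median of 0.29 over the 5. Among all 650 named genes tested, 88 rose and 62 fell. TLR2, a receptor of bacterial lipopeptides, lay between -5.37 and -3.95 in newborn ventricles (median -4.31) and between -5.73 and -5.02 in fetal ventricles (median -5.32). It changed by 0.88 (SE 0.201, adjusted p = 0.00759 in limma), with 5 newborn and 2 fetal arrays well above background, and at 0.36 it did not pass with dim signals floored (adjusted p = 0.0953 in limma). Another probe of TLR2 was well above background on no array and was not tested. TLR4, the receptor to which CD14 delivers endotoxin, was 0.27 higher and did not pass, nor did ITGB2, an integrin chain of leukocytes (0.29), or IRAK4, a kinase of the pathway (-0.19). Without the 3 newborn animals of 1 number 0 of the 5 passed in limma.

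Of 31 monocyte and macrophage markers 9 had a named probe and 7 were tested. Of these 4 rose and 0 fell, with a median of 0.68, against 88 that rose and 62 that fell among 650 named genes. The 4 were FCGR1A, FCER1G, CD14 and CD86, so the count mostly restates the 3 genes under study. Of the other 4 tested markers 1 passed, with a median of 0.45. CD86, a costimulatory protein of antigen-presenting cells, lay between -3.24 and -1.82 in newborn ventricles (median -2.70) and between -4.51 and -3.72 in fetal ventricles (median -4.17), with no overlap. Its log2 change was 1.54 (SE 0.215, adjusted p = 0.000545 in limma), with 7 newborn and 4 fetal arrays well above background, and it was 0.72 on signals with no background correction. Another probe of CD86 was well above background on 3 newborn and 0 fetal arrays and was not tested. CD80, its partner in costimulation, was 0.23 lower in newborn ventricles, CTSS, a lysosomal protease of antigen-presenting cells, was 0.23 higher and LYZ, lysozyme, 0.68 higher, and none of these passed. ITGAM, the myeloid integrin CD11b, was well above background on no array, and the part of macrophage number in the result was not tested. The summed signal of the 9 genes was 1.63 to 3.51 times the array's 75th percentile on newborn arrays and 1.28 to 1.85 times on fetal arrays, ranges that overlap. Such a sum leans on its brightest probe, here that of FCER1G, and is not a measure of cell number. Without the 3 newborn animals of 1 number FCGR1A and CD86 passed, and CD86 then changed by 1.28.

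Of 14 cytokines that recruit or mature monocytes 4 had a named probe, and TNF and IL1B were tested. TNF, an inflammatory cytokine that macrophages release, lay between -4.26 and -2.51 in newborn ventricles (median -3.21) and between -6.07 and -4.15 in fetal ventricles (median -5.01). It changed by 1.75 (SE 0.364, adjusted p = 0.00459 in limma), with 6 newborn and 2 fetal arrays well above background, and by 0.62 with no background correction. IL1B, another such cytokine, was well above background on 7 newborn and 3 fetal arrays and changed by 0.42 (adjusted p = 0.0396 in limma). It did not pass with no background correction (0.20, adjusted p = 0.101 in limma), dim signals floored (0.26, adjusted p = 0.187 in limma) or quantile normalization (0.35, adjusted p = 0.0673 in limma). Nor did it pass under either normexp correction, with slide as a block, or with a trended and robust eBayes. It also did not pass without fetal 1, 2, 4 or 5, or without newborn 2, 3 or 7 (adjusted p between 0.0529 and 0.0872 in limma).

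**Figure D4:**
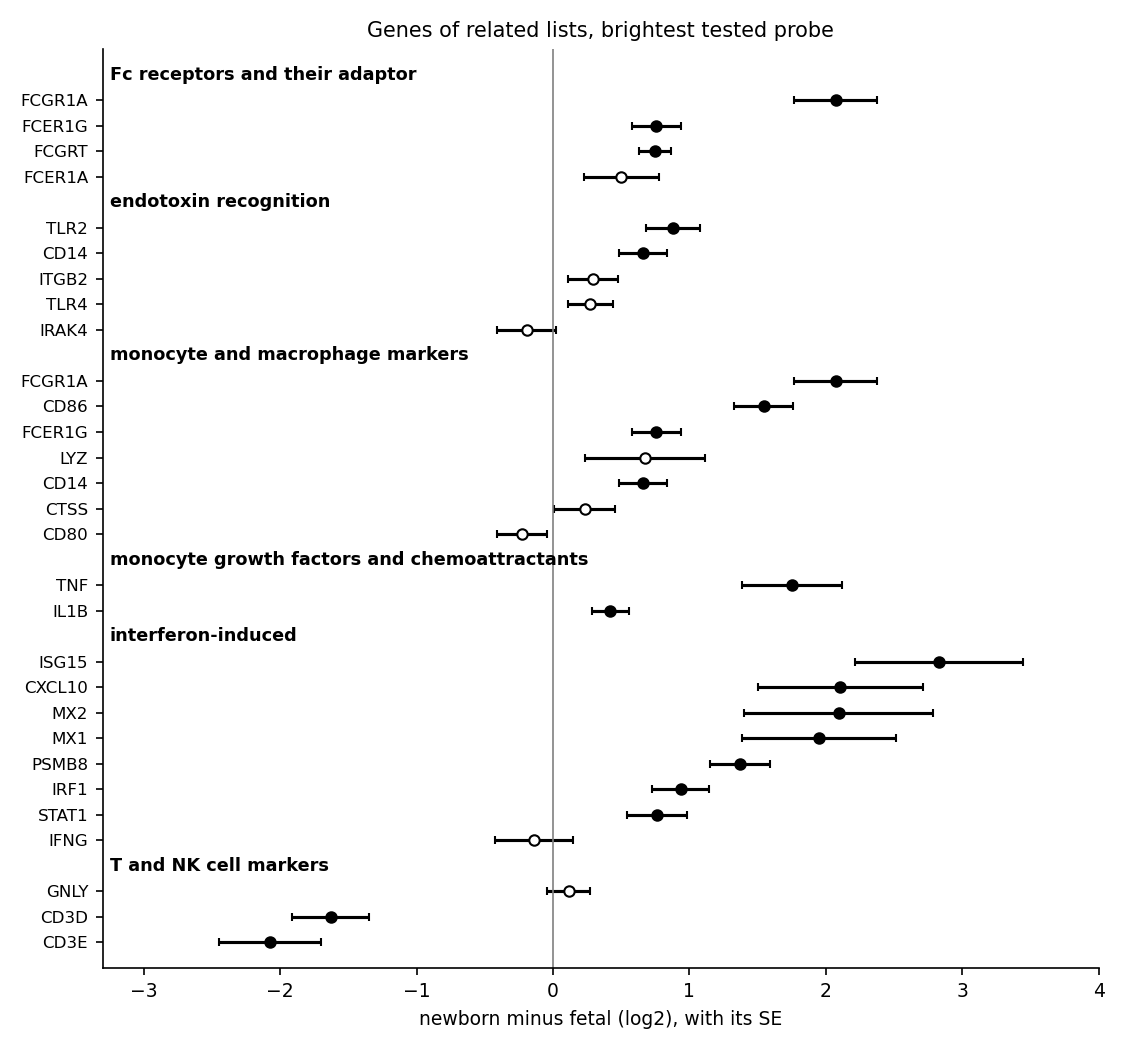
Log2 change, newborn minus fetal, with its SE, for every tested gene of 6 lists, by its brightest tested probe. Filled points passed at an adjusted p of 0.05 in limma and open points did not, and FCGR1A, FCER1G and CD14 appear in more than 1 list. In the 4 lists of Fc receptors, endotoxin recognition, monocyte markers and monocyte cytokines every filled point lies above 0, and 2 of 3 T and NK cell genes lie below -1.6.

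Genes of an interferon-induced list and markers of other cell types moved as follows. The background for each count is the 88 that rose and 62 that fell among 650 named genes tested. Most of these lists hold too few tested genes to give a rate of their own. Of 8 genes of the interferon list tested 7 rose and 0 fell, led in p by PSMB8 (1.37, adjusted p = 0.00134 in limma) and ISG15 (2.83, adjusted p = 0.00586 in limma). The eighth was IFNG, interferon gamma itself, which was well above background on 3 newborn and 3 fetal arrays and did not pass (-0.14, adjusted p = 0.752 in limma). The summed signal of that list was 4.73 to 62.1 times the 75th percentile on newborn arrays and 1.66 to 3.99 times on fetal arrays. Each of its genes was, by its brightest probe, well above background on some array. Of 6 T and NK cell markers with a named probe 3 were tested and 2 fell, CD3E by 2.07 and CD3D by 1.63 on the log2 scale, the opposite direction to FCGR1A, FCER1G and CD14. The third, GNLY, did not pass on its brightest probe (0.12, adjusted p = 0.621 in limma). Its other tested probes gave -0.94 and -1.59 and did not pass either (adjusted p = 0.231 and 0.0995 in limma). With no background correction the changes were -0.95 for CD3E and -0.43 for CD3D. With normexp by the array's median background CD3E was -0.76 and passed, and CD3D, well above background on 2 newborn and 5 fetal arrays, was -0.30 and did not (adjusted p = 0.0534 in limma). The list's summed signal was 0.23 to 0.40 on newborn and 0.40 to 0.83 on fetal arrays, and CD4 and CD28 were well above background on no array. Of 3 red cell genes tested 2 fell, HBB, the beta globin chain, by 1.53 and AHSP, an alpha globin chaperone, by 1.73. AHSP was well above background on 2 newborn and 5 fetal arrays, and did not pass with dim signals floored (-0.76), with no background correction (-0.43), or without any 1 of fetal 2, 3, 4 and 5 or newborn 1, 2, 3, 6 and 7 (adjusted p between 0.0583 and 0.103 in limma). The list's summed signal was 25.7 to 68.8 on newborn and 53.8 to 258 on fetal arrays. No granulocyte marker was tested, since LTF was well above background on 3 fetal and 0 newborn arrays, and MMP9 and the brighter probe of CYBB on none. Mast cell markers were FCER1A, above, KIT, which was not tested, and MS4A2, with a summed signal of 0.30 to 0.85 on newborn and 0.30 to 0.80 on fetal arrays. CR2, the only B cell marker with a named probe, was not tested, with 0.00867 to 0.0432 on newborn and 0.00872 to 0.0269 on fetal arrays. Of 4 endothelial genes tested PECAM1 fell by 0.51 and KDR fell by 0.46, while ICAM1 at 0.85 and NOS3 at 0.20 did not pass, and the median was -0.13. KDR did not pass without fetal 1 or fetal 2 (adjusted p = 0.0512 and 0.0503 in limma). The list sum was 4.31 to 6.57 on newborn and 5.66 to 7.42 on fetal arrays. Each list sum leans on its brightest probe, such as HBB for red cells, PECAM1 for endothelium and FCER1A for mast cells, and is not a measure of cell number. The part of any of these cell types in the changes of FCGR1A, FCER1G and CD14 was not tested.

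**Figure D5:**
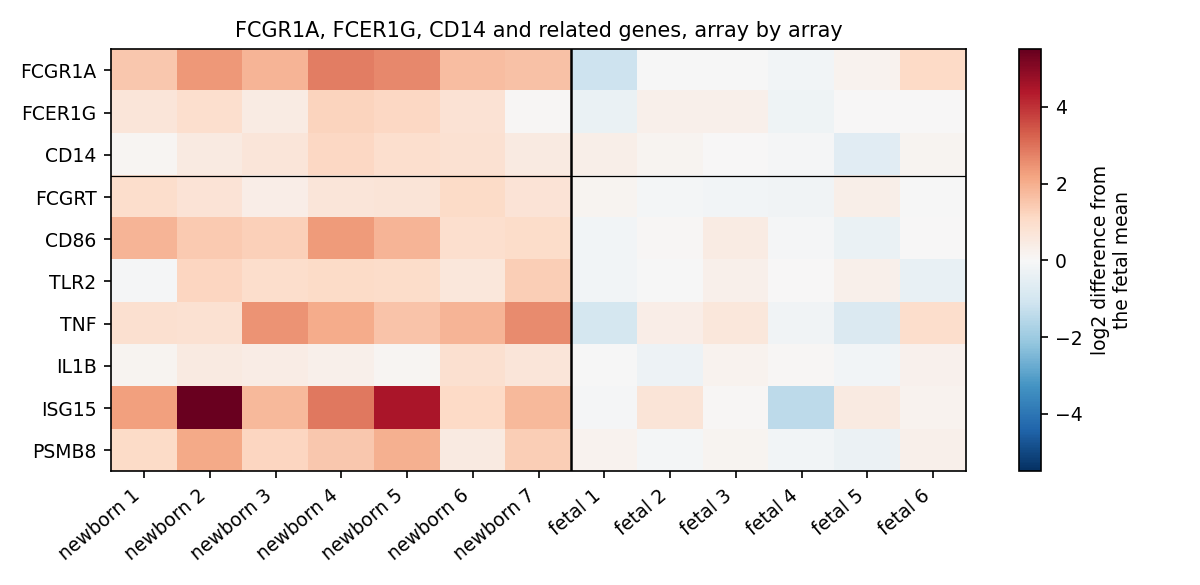
Difference in log2 signal from the fetal mean of each gene, with newborn arrays at the left of the black line and fetal arrays at the right, for FCGR1A, FCER1G and CD14 and for 7 genes of related lists. Red is higher than the fetal mean and blue lower. FCGR1A and FCER1G are highest on newborn 2, 4 and 5, on which ISG15 also lies between 2.64 and 5.17, and CD14 is near its fetal mean on newborn 1.

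From animal to animal, with age taken out, FCGR1A correlated more with FCER1G than either did with CD14, a difference that was not tested. With group means subtracted, over 13 arrays that share animal numbers and 632 named genes, Pearson's r was 0.63 between FCGR1A and FCER1G, 0.20 between FCGR1A and CD14, and 0.29 between FCER1G and CD14. FCER1G ranked 11th among the 632 genes in likeness to FCGR1A, and FCGR1A ranked 19th in likeness to FCER1G. The genes most like FCGR1A were FZD2, a Wnt receptor, at 0.86, ATP6V0C, a subunit of the proton pump of lysosomes, at 0.85, and BBC1, as the array names it, at 0.77. Those most like FCER1G were ITGB2 at 0.83, ASIP, the agouti signalling protein, at 0.82, and CTSS at 0.76. For CD14 they were LOC443289, SMCT1 and RHAMM, as the array or RefSeq names them, at 0.75, 0.73 and 0.73. These values describe 13 arrays and carry no test. FCGR1A was well above background on 2 of 6 fetal arrays only. Its lowest value, -5.94 on fetal 1, fell on the array with the lowest FCER1G value, -0.83. The newborn animals highest for both genes were those that share a number.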

How the data were processed

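RNA of sheep left ventricle was labelled with Cy3, per the labels' protocols, although another label gives Cy5. The scanner output deposited has 1 green channel and was read as 1-colour. It gives spot intensity from Agilent Feature Extraction 10.1.1.1, per the file headers. Processed signals are intensity values with background subtracted and detrended within the array, and the p-value that a spot equals background is also deposited. The series matrix the authors deposited seems, from its range, to hold log2 signals of 7041 probes with column medians of 8.69 to 8.70. Its scaling and centring are given by no source used here, and 2 of the 5 probes are in it, both of FCER1G.

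The value used was log2 of the processed signal minus the array's 75th percentile over non-control spots. Control spots and outlier spots were left out. Of 15008 probes, 1634 (10.9%) carried a single gene name after a match to RefSeq symbols, while 14 carried several, 8 conflicting and 13352 none. A gene was represented by its brightest tested probe. Newborn and fetal arrays were compared by limma 3.58.1 (lmFit, eBayes; R 4.3.3) with two-sided tests and age as the only term, and by exact permutation of 1 value per array. Sex and its product with age were added for those comparisons. Files were read with the R package data.table (version 1.17.8), Python 3.11.15, pandas 2.3.3 and numpy 2.4.6, and figures were drawn with matplotlib 3.10.9. The fit was tested on simulated data. Arrays of a group correlated at 0.973 to 0.989 and no pair was identical.

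The 3 genes and the gene lists were chosen with earlier results of these data known. The genes named are the 3 with every probe, all that passed in the lists for Fc receptors, signalling, endotoxin recognition, monocyte markers and cytokines, the 2 with the smallest p in each other list, and the 3 most alike in pattern to each of the 3 genes. Other list genes are named because the count they complete is small, and were chosen after their values were seen. Alternatives were other background corrections, normalizations and filters, the series matrix, slide, sex, animal and replicate number, a trended and robust eBayes, other probes, and each array left out. Replicate numbers did not pair the animals: same-numbered arrays' deviations correlated at -0.07 to 0.05.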

Additional observations from a re-analysis of the deposited data

Results flagged for a closer look

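In 58 groups of values examined, for the 3 genes and the named genes of their lists, 2 single arrays lay far from the rest of their group by Dixon's 95% criterion, which flags about 1 group in 20 by chance. Neither was a value of FCGR1A, FCER1G or CD14. ISG15 was at -1.69 on fetal 4, and the other fetal arrays lay between -0.33 and 0.44. CD3E was at -5.63 on newborn 3, and the other newborn arrays lay between -4.02 and -2.98.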

How the results depend on the processing

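The direction of FCGR1A, FCER1G and CD14 was newborn over fetal under every alternative that gave a value. FCGR1A passed under 28 of 30 alternatives (0.41 to 2.29), FCER1G under 29 of 34 (0.50 to 0.87) and CD14 under 27 of 33 (0.13 to 1.08). The series matrix gave no value for FCGR1A and CD14, nor the filter of all 13 arrays for FCGR1A. Normexp with each spot's background ended all 3 calls (0.41, 0.57 and 0.13), with 45 probes passing in all and exact permutation p = 0.302 for FCGR1A and 0.569 for CD14. Within slide 1, with 356 probes passing, FCER1G (0.70) and CD14 (0.29) did not pass, and within slide 2, with 23, neither did FCGR1A (1.55), FCER1G (0.79) or CD14 (1.08); both fits hold fewer arrays. With animal numbers averaged, 317 probes passed and FCER1G (0.68) and CD14 (0.64) did not. Without the 3 newborn animals of 1 number, 749 probes and 9 of 21 named list genes passed, and FCER1G (0.50) and CD14 (0.52) did not. With the replicate number as a block, 1325 probes passed and CD14 did not (0.68, adjusted p = 0.0684 in limma), the other calls of the 3 genes standing; these numbers do not pair the animals. The age-by-sex term of FCER1G, which never passed, ranged from -0.33 to 0.0411 over its alternatives, the value above 0 being that without newborn 7. Where a signal lies near background, as for FCGR1A and CD14, the size of a change is less well measured. The cause of the differences between background corrections was not tested.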
